A study of Rattus norvegicus with 8 samples.

Results

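The genes described here were 7 facilitative carriers of brain fuel, the glucose transporters *Slc2a1*, *Slc2a3*, *Slc2a4* and *Slc2a8* and the monocarboxylate transporters *Slc16a1*, *Slc16a3* and *Slc16a7*. They were taken by their NCBI GeneIDs from the 22601 genes with a value in each library of rat hippocampus, and all 7 passed the limit on low values. *Slc2a1* was chosen by its measured difference in FPKM between the PTZ and Con. groups, so the values of that comparison are given as a description, without a p-value, for every carrier. Hippocampal RNA of wild type Wistar rats of 180 to 220 g was sequenced, with 1 library per rat in 3 groups, and neither age nor sex was given. The PTZ group (n = 3) was kindled with repeated sub-convulsive injections of the GABA-A receptor blocker pentylenetetrazole (PTZ), which causes seizures, and was then gavaged daily with vehicle. The Q808 group (n = 2) was kindled in the same way and then gavaged daily with Q808, a compound tested against seizures, and the Con. group (n = 3) received vehicle in place of both agents. Kindling was judged by a seizure criterion, and both kindled groups received another PTZ injection the day after the last gavage, before the tissue was taken. The effects of kindling and of that last injection therefore cannot be told apart.

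Glucose crosses the blood-brain barrier through GLUT1, the product of *Slc2a1*, which is densest in brain endothelial cells and is also made by astrocytes and choroid plexus epithelium. GLUT3, the product of *Slc2a3*, is the main neuronal glucose carrier, GLUT4 (*Slc2a4*) moves to the cell surface on insulin, and GLUT8 (*Slc2a8*) lies mostly on membranes within the cell. Lactate, pyruvate and ketone bodies move with a proton through the monocarboxylate transporters. MCT1 (*Slc16a1*) serves endothelium, astrocytes and oligodendrocytes, MCT2 (*Slc16a7*) is the high-affinity carrier of neurons, and MCT4 (*Slc16a3*) exports lactate from glycolytic cells. MCT1 and MCT4 reach the membrane with the help of the chaperone basigin, the product of *Bsg*.

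The promoters of *Slc2a1* and *Slc16a1* are shown because these were the carriers with the highest levels in the glucose and the monocarboxylate family. Each sequence runs 5′ to 3′ over 250 bases before and 50 bases after the start site in the RefSeq annotation of GRCr8, on the plus strand. Capitals mark matches to the hypoxia response core ACGTG on either strand and to the TATA box sequence TATAAA.
Slc2a1, chr5:138002272-138002571: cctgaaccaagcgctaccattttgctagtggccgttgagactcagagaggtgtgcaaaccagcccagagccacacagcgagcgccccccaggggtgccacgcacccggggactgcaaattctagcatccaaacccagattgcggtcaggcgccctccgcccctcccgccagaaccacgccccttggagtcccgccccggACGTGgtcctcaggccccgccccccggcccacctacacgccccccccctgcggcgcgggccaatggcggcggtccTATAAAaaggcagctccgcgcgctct
Slc16a1, chr2:194812410-194812709: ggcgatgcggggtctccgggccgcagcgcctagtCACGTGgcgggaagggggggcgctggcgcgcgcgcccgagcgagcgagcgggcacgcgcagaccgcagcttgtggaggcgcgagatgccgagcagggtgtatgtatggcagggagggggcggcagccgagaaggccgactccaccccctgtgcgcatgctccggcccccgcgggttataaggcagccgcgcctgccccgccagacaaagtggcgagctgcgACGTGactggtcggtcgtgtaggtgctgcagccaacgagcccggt
The *Slc2a1* promoter held ACGTG once, at position -51 from the start, and TATAAA at position 25. The latter match lies after the annotated start, so it is given as a sequence match only. In the *Slc16a1* promoter ACGTG stood at positions -215 and 6 on the plus strand, and the first of these lies within the palindrome CACGTG at position -216, which also gives a match on the minus strand. Of the 33469 rat promoters of 300 bases, 19.3% held ACGTG, 6.42% held CACGTG and 14.2% held TATAAA on either strand. RefSeq promoters were matched for 5 of the 7 carriers, and of the other 3 of these only *Slc16a7* held ACGTG, at position -239 on the minus strand.

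Between 11682970 and 16660241 whole fragments per library could be recovered from the deposited FPKM, which are fragments scaled to the length of the gene and to the mapped fragments of the library and so can be compared between genes. The libraries fell into 2 sets that crossed the groups. In Con.-3, PTZ-3 and Q808-1 the mean log2(FPKM + 0.1) of 7 striatal projection neuron markers lay between 5.98 and 7.34, against 1.74 to 2.65 in the other 5 libraries. The 5 hippocampal neuron markers averaged 3.11 to 3.31 in those 5 libraries and 1.16 to 1.68 in the 3 libraries high in striatal markers. Differences of the carriers, of the called fuel-handling genes and of gene lists that turn between the sets are therefore given also within them, and the set of 3 has 1 library per group.

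*Slc2a1* had the highest level of the 7 carriers in every library. Its FPKM were 50.2, 52.05 and 58.7 in the Con. group, 94.5, 105 and 84.5 in the PTZ group, and 130.6 and 72.2 in the Q808 group. All 3 PTZ libraries and both Q808 libraries lay above the highest Con. library, and the 2 Q808 libraries lay on either side of the PTZ range. The values rest on 1839 to 4272 fragments per library, a counting error of 1.53% to 2.33%. The exact Poisson 95% interval was 126.7 to 134.7 FPKM in Q808-1 and 69.5 to 74.9 FPKM in Q808-2, so these rats differed by far more than counting error. Such intervals cover counting error only.

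Mean *Slc2a1* in FPKM was 53.7 ± 4.47 in the Con. group (SD, n = 3), 94.7 ± 10.3 in the PTZ group (SD, n = 3) and 101 ± 41.3 in the Q808 group (SD, n = 2). The ratio of means was 1.77 for PTZ against Con., and the log2 difference, taken throughout on log2(FPKM + 0.1), was 0.82 with a standard error of 0.13. Of all 15593 genes tested, 4.71% had a larger absolute log2 difference in this comparison. In bulk tissue, more cells of a type and more RNA per cell cannot be told apart.

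**Figure D1:**
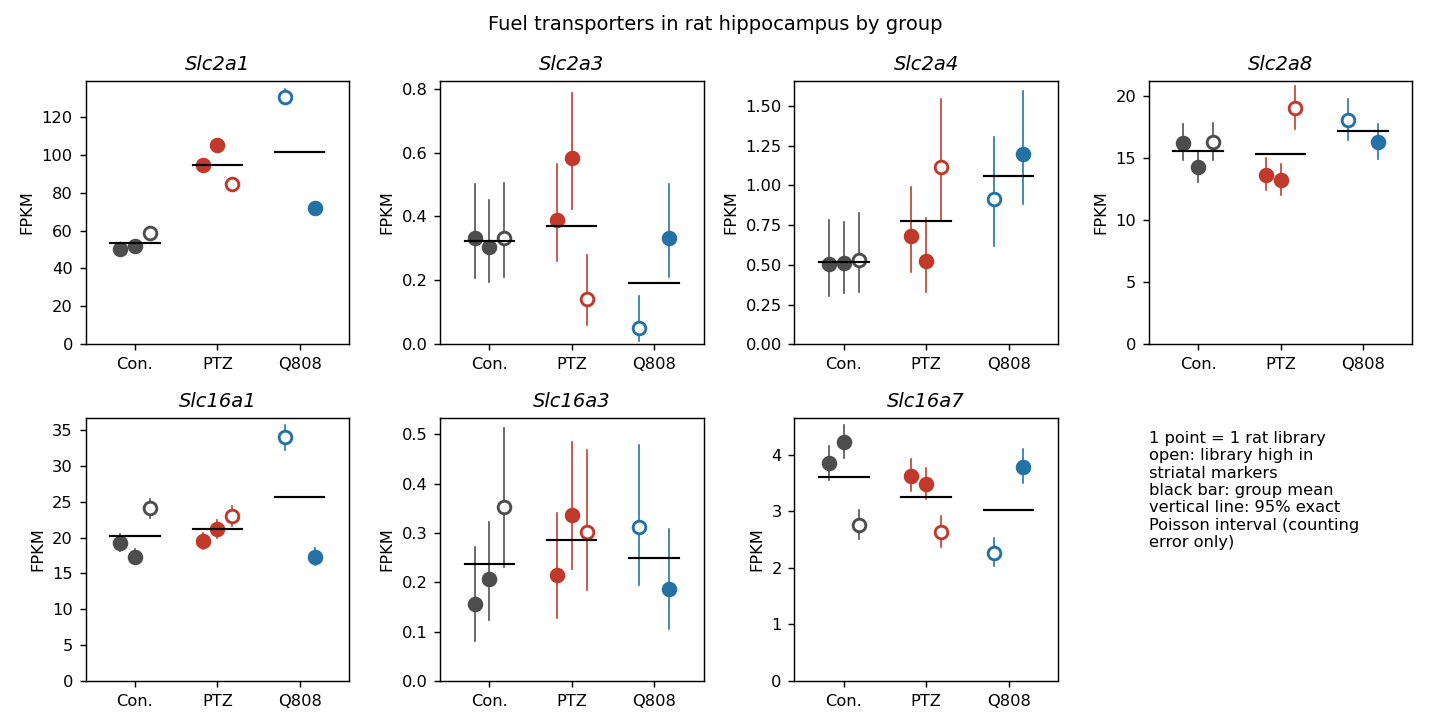
FPKM of the 7 fuel transporters in each rat library (points) of the Con., PTZ and Q808 groups, with group means (black bars) and exact Poisson 95% counting intervals (vertical lines). Open points are the 3 libraries high in striatal markers. *Slc2a1* is 50.2 to 58.7 FPKM in the Con. group and 72.2 to 130.6 FPKM in the kindled groups, while the other carriers overlap between Con. and PTZ.

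The other glucose carriers were all below *Slc2a1*. *Slc2a8* came next, at 16.2, 14.3 and 16.3 FPKM in the Con. libraries, 13.6, 13.2 and 19.0 FPKM in the PTZ libraries, and 18.1 and 16.2 FPKM in the Q808 libraries. It was the steadiest of the 7, with a ratio of 1.44 between its highest and lowest library, and its groups overlapped in all 3 comparisons.

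*Slc2a4*, the insulin-responsive carrier, was measured at 0.502, 0.512 and 0.533 FPKM in the Con. group, 0.684, 0.524 and 1.11 FPKM in the PTZ group, and 0.915 and 1.198 FPKM in the Q808 group. Both Q808 libraries lay above all Con. libraries, and PTZ-3 lay between the 2 Q808 libraries. These values rest on 19 to 47 fragments, and the 95% counting interval of Con.-3, the highest Con. library, was 0.326 to 0.824 FPKM, which overlaps that of Q808-1 at 0.617 to 1.31 FPKM.

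*Slc2a3*, the neuronal carrier, was listed at 0.331, 0.304 and 0.334 FPKM in the Con. group, 0.390, 0.583 and 0.141 FPKM in the PTZ group, and 0.0521 and 0.334 FPKM in the Q808 group. The lowest values were those of PTZ-3 and Q808-1, with 8 and 3 fragments. A second gene, annotated as a *Slc2a3*-like copy, held 9, 115, 9, 29, 169, 11, 1 and 19 fragments in Con.-1 to Con.-3, PTZ-1 to PTZ-3 and Q808-1 and Q808-2. Fragments that match both copies may have been split or left out in counting, so the level of *Slc2a3* is uncertain. The sum over both copies ranged from 4 fragments in Q808-1 to 212 in PTZ-2.

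Among the monocarboxylate carriers *Slc16a1* was the highest. It stood at 19.3, 17.3 and 24.1 FPKM in the Con. group, 19.5, 21.2 and 23.0 FPKM in the PTZ group, and 34.0 and 17.4 FPKM in the Q808 group. Q808-1 was the highest library and Q808-2 lay at the lower end of the Con. range. Within each group the library high in striatal markers had the highest *Slc16a1*. These 3 libraries were also the highest in 8 oligodendrocyte markers, at mean log2 levels of 8.41 to 9.13 against 7.03 to 7.71 in the other 5. The part of oligodendrocyte RNA in this order was not tested.

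The neuronal carrier *Slc16a7* showed the reverse order within each group. Its FPKM were 3.85, 4.23 and 2.76 in the Con. group, 3.63, 3.49 and 2.63 in the PTZ group, and 2.27 and 3.79 in the Q808 group. The library high in striatal markers was the lowest of each group. Those 3 libraries were also the lowest in 7 general neuron markers, at mean log2 levels of 6.23 to 6.57 against 6.94 to 7.68 in the other 5. The part of neuronal RNA in this order was not tested. *Slc16a3*, the carrier of glycolytic cells, was near the limit of measurement at 0.155 to 0.352 FPKM in the Con. group, 0.215 to 0.337 FPKM in the PTZ group and 0.187 to 0.313 FPKM in the Q808 group, on 12 to 29 fragments.

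By mean FPKM over the 8 libraries the order was *Slc2a1*, *Slc16a1*, *Slc2a8*, *Slc16a7*, *Slc2a4*, *Slc2a3* and *Slc16a3*. The place of *Slc2a3* is uncertain because of its copy. *Slc16a1* and *Slc2a8* overlapped across libraries, and *Slc2a3* overlapped both *Slc2a4* and *Slc16a3*, which did not overlap each other, while *Slc2a1* and *Slc16a7* stood apart from their neighbours.

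Between PTZ and Con., *Slc2a1* alone of the 7 met the limits used for a call, which were over 1.5-fold change together with an unadjusted p-value in limma below 0.05. Of all genes tested 2.53% met them and 1.69% met them with a higher level in PTZ, and the groups did not overlap for 9.15%, or 4.11% with PTZ higher. Nothing is read from this count, since *Slc2a1* was chosen for it. The other 6 carriers overlapped between both groups. Their log2 differences were 0.45 (SE 0.35) for *Slc2a4*, 0.22 (SE 0.37) for *Slc16a3*, 0.08 (SE 0.16) for *Slc16a1*, 0.03 (SE 0.45) for *Slc2a3*, -0.04 (SE 0.18) for *Slc2a8* and -0.14 (SE 0.25) for *Slc16a7*.

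Between Q808 and PTZ, the comparison that asks what the compound did in kindled rats, 0 of the 7 carriers were called, against 1.92% of all genes tested, and 0 of the 7 had an unadjusted p-value in limma below 0.05, against 2.19%. All 7 overlapped between both groups, while 15.6% of all genes did not. The log2 difference of *Slc2a1* was 0.04 with a standard error of 0.28 and a 95% interval from -0.63 to 0.72 (limma, unadjusted p = 0.885, adjusted p = 0.985). Both a lower and a higher level are thus within reach of the data. The PTZ libraries here also served in the comparison that chose *Slc2a1*, so this difference is not independent of that choice. The largest difference was -0.75 (SE 0.69) for *Slc2a3* (limma, adjusted p = 0.952), and the other 5 lay between -0.15 for *Slc16a3* and 0.45 for *Slc2a4*.

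Between Q808 and Con., 2 of the 7 carriers were called, both higher in the Q808 group, where 3.46% of all genes were called and 3.07% were called higher. *Slc2a1* was 1.89 times as high by the ratio of means, with a log2 difference of 0.86 (SE 0.27, limma, unadjusted p = 0.0226, adjusted p = 0.901). *Slc2a4* was 2.05 times as high, with a log2 difference of 0.90 (SE 0.30, limma, unadjusted p = 0.0264, adjusted p = 0.901). Neither passed the adjustment over all genes, as 0.00641% of genes did, and the adjusted p-values over the alternatives ranged from 0.359 to 1 and from 0.437 to 1. Groups that did not overlap with Q808 higher were found for 13.3% of all genes tested. This comparison shares its Con. libraries with the one that chose *Slc2a1*, so it is not independent of that choice.

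The other 5 carriers overlapped between Q808 and Con. The log2 difference was -0.72 (SE 0.54) for *Slc2a3*, 0.28 (SE 0.32) for *Slc16a1*, -0.27 (SE 0.32) for *Slc16a7*, 0.14 (SE 0.15) for *Slc2a8* and 0.07 (SE 0.44) for *Slc16a3*, with adjusted p-values in limma of 0.901 to 0.979. Without Q808-1 the *Slc2a1* difference was 0.43 (limma, unadjusted p = 0.0591, adjusted p = 1), and without Q808-2 it was 1.29. Either leaves 1 Q808 library, which is assumed to vary like the Con. libraries that alone give the spread. Without Con.-1 or Con.-2 the difference was 0.81 or 0.84 (limma, unadjusted p = 0.0673 and 0.0643). The call of *Slc2a4* was lost without Con.-1, Con.-2 or Q808-2, at log2 differences of 0.88, 0.89 and 0.72.

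**Figure D2:**
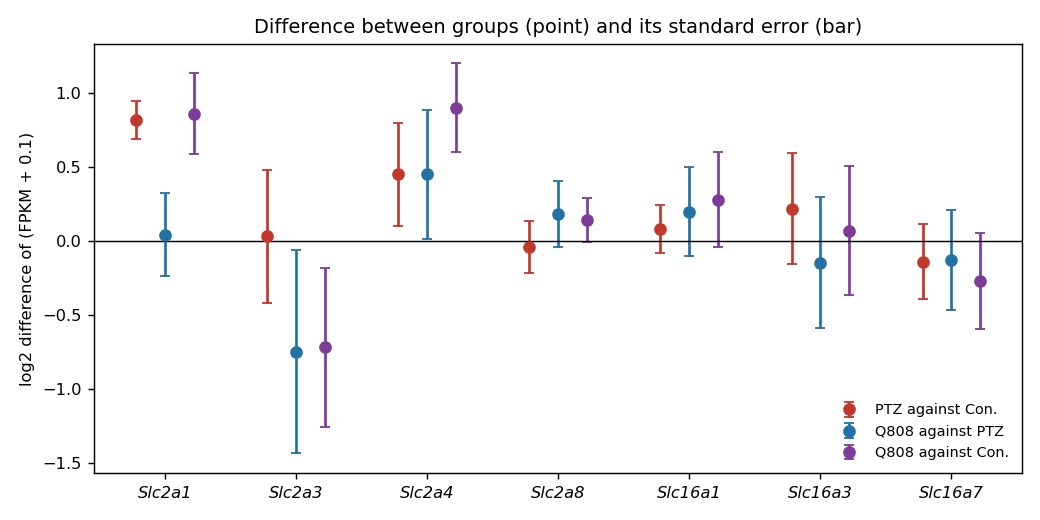
Difference in log2(FPKM + 0.1) between groups (points) with its standard error (bars) for each of the 7 carriers in each of the 3 comparisons (red, blue and purple as named in the key). *Slc2a1* stands at 0.82 and 0.86 against Con. and at 0.04 between Q808 and PTZ, and *Slc2a4* reaches 0.90 in Q808 against Con.

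The sets of libraries changed these differences in size and, for some carriers, in direction. In the 5 libraries low in striatal markers, *Slc2a1* differed by 0.96 on the log2 scale between PTZ and Con. and by -0.47 between Q808 and PTZ. In the 3 libraries high in them, the same differences were 0.53 and 0.63. The lower level in Q808-2 than in PTZ-1 and PTZ-2 and the higher level in Q808-1 than in PTZ-3 thus went opposite ways, with 1 Q808 library in each set. Against Con., *Slc2a1* was higher in the Q808 library of both sets, by 0.50 and 1.15.

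*Slc2a4* differed between Q808 and Con. by 1.10 in the set of 5 and by 0.68 in the set of 3. Between PTZ and Con. its difference was 0.20 in the set of 5 and 0.94 in the set of 3, the latter from PTZ-3 alone. *Slc16a1* differed between Q808 and Con. by -0.08 in the set of 5 and by 0.50 in the set of 3, and *Slc16a7* by -0.09 and -0.27. *Slc2a3* differed between PTZ and Con. by 0.47 in the set of 5 and by -0.85 in the set of 3, and between Q808 and Con. by 0.055 and -1.51. *Slc16a3* differed between PTZ and Con. by 0.41 and -0.17, and between Q808 and Con. by 0.036 and -0.13. For *Slc2a8* all differences within sets lay between -0.18 and 0.27.

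*Slc2a1* was then set against other carriers of the same library. The ratio of *Slc2a1* to *Slc16a1* in FPKM was 2.60, 3.01 and 2.44 in the Con. group, 4.85, 4.96 and 3.68 in the PTZ group, and 3.84 and 4.16 in the Q808 group. All 5 kindled libraries lay above all 3 Con. libraries, and the 2 Q808 libraries, far apart in *Slc2a1* itself, were close in this ratio. The mean ratio was 2.68 ± 0.292 in the Con. group and 4.49 ± 0.711 in the PTZ group (SD, n = 3 each).

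The ratio to *Slc2a8* was 3.10, 3.65 and 3.61 in the Con. group, 6.94, 7.94 and 4.45 in the PTZ group, and 7.24 and 4.45 in the Q808 group, again without overlap between Con. and the kindled groups. The ratio to *Slc16a7* was 13.1, 12.3 and 21.3 in the Con. group, 26.0, 30.1 and 32.2 in the PTZ group, and 57.7 and 19.1 in the Q808 group, so Q808-2 fell within the Con. range. The ratio to *Slc2a4* was 99.95 to 110.1 in the Con. group, 138.1, 200.5 and 75.8 in the PTZ group, and 142.8 and 60.2 in the Q808 group, so PTZ-3 and Q808-2 lay below the Con. range and the other kindled libraries above it. The ratio to *Slc16a3* was 166.9 to 324 in the Con. group, and 311.4 in PTZ-2 and 279.3 in PTZ-3 lay within that range. PTZ-1 at 439.8, Q808-1 at 417.5 and Q808-2 at 386.3 lay above it. The ratio to *Slc2a3*, whose level is uncertain, was 151.6 to 175.7 in the Con. group and 180.1 to 2507 in the kindled groups. These last 3 ratios rest on few fragments of the second gene. All of the ratios carry the *Slc2a1* difference for which the gene was chosen and were not tested.

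**Figure D3:**
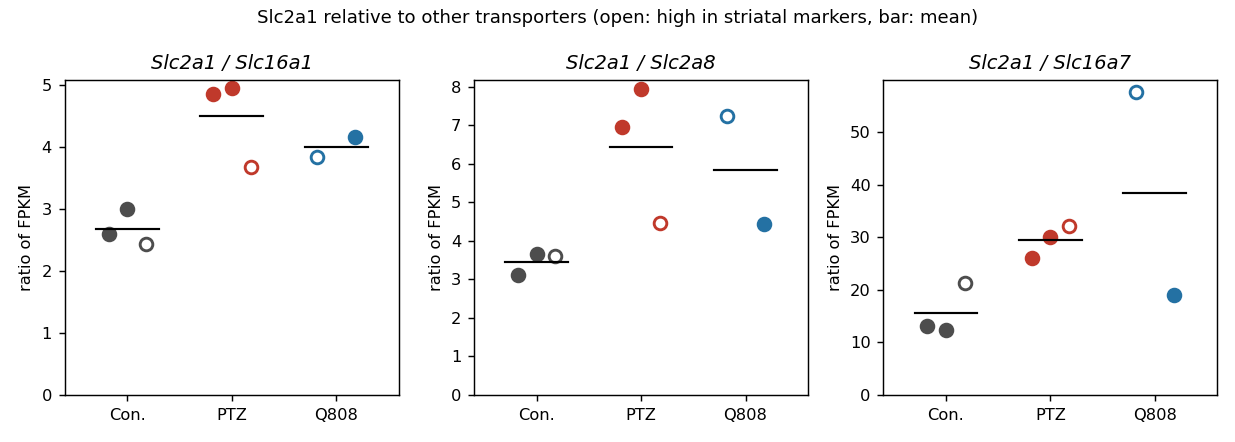
Ratio of *Slc2a1* FPKM to the FPKM of *Slc16a1*, *Slc2a8* and *Slc16a7* in each library (points, open for libraries high in striatal markers) with group means (bars). The ratio to *Slc16a1* is 2.44 to 3.01 in the Con. group and 3.68 to 4.96 in the kindled groups.

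Because *Slc2a1* is made by endothelium, astrocytes and choroid plexus, the markers of these cells were measured in the same libraries. The mean log2(FPKM + 0.1) of 13 endothelial markers was 2.85, 2.81 and 2.99 in the Con. group, 2.79, 2.42 and 3.63 in the PTZ group, and 3.91 and 3.16 in the Q808 group. By this mean PTZ-1 and PTZ-2 were the lowest of all 8 libraries, PTZ-1 only just, at 2.788 against 2.808 in Con.-2, and both had high *Slc2a1*. Single markers went both ways in PTZ-1. *Cldn5* was 54.9 FPKM there, above the 46.0 to 49.5 FPKM of the Con. group. *Ocln* was 1.77 FPKM, below the 3.76 to 4.21 FPKM of the Con. group. Both Q808 libraries lay above all Con. libraries in endothelial markers as well as in *Slc2a1*.

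Between PTZ and Con., 3 of the 13 endothelial markers were higher without overlap (4.11% of all genes) and 2 were called higher (1.69% of all genes). These 2 were *Pecam1*, which codes for an endothelial adhesion molecule, and *Mfsd2a*, a lipid carrier of the blood-brain barrier, and the median log2 difference was 0.18, or -0.07 in the set of 5 libraries. The summed endothelial level was 150.3 to 158.3 FPKM in the Con. group and 126 to 251.8 FPKM in the PTZ group. Between Q808 and Con., 11 of the 13 were higher without overlap (13.3% of all genes), 5 were called higher (3.07% of all genes), and the median was 0.69 (0.29 in the set of 5), with sums of 183.4 to 295 FPKM in the Q808 group. None of the 13 was at 0 in all libraries.

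On the log2 scale *Slc2a1* exceeded the endothelial mean by 2.80, 2.90 and 2.89 in the Con. group, 3.78, 4.30 and 2.77 in the PTZ group, and 3.12 and 3.02 in the Q808 group. PTZ-1 and PTZ-2 stood high by this measure, PTZ-3 lay just below the Con. range and both Q808 libraries lay just above it. The 9 astrocyte markers averaged 6.61 to 6.90 in the Con. group, 6.92 to 7.08 in the PTZ group, and 7.40 and 6.90 in the Q808 group. In any comparison 0 of the 9 were called, where 1.92% to 3.46% of all genes were. All 5 kindled libraries lay above the Con. range in the astrocyte mean, Q808-2 by a margin of 6.903 against 6.902. *Aqp4*, *Slc1a3* and *Aldoc* were higher in PTZ than in Con. without overlap (4.11% of all genes).

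Choroid plexus markers varied widely within the groups. Their mean log2 level over 9 genes was 2.55, 2.80 and -0.33 in the Con. group, 0.74, 0.35 and 1.34 in the PTZ group, and 0.32 and 4.14 in the Q808 group, and *Otx2* was at 0 in all libraries. The summed level was 92.2 to 2539 FPKM in the Con. group, 278 to 493.7 FPKM in the PTZ group and 163.9 to 6454 FPKM in the Q808 group. Con.-1 and Con.-2, with high choroid plexus markers, had the lowest *Slc2a1*. Q808-2, with the highest choroid plexus markers, lay above all Con. libraries in *Slc2a1* and was the lowest of the kindled libraries. In any comparison 0 of the 8 tested markers were called, where 1.92% to 3.46% of all genes were. The part of this tissue in the *Slc2a1* differences was not tested.

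By mean log2 level, erythroid markers were higher in all kindled libraries than in the Con. group, as *Slc2a1* was. Their mean log2 level over 6 genes was 1.78, 1.19 and 1.12 in the Con. group, 2.41, 1.79 and 2.25 in the PTZ group, and 3.09 and 2.74 in the Q808 group, with 3 of 5 tested genes called higher in PTZ against Con. (1.69% of all genes) and 4 of 5 in Q808 against Con. (3.07% of all genes). The sums ran from 281.5 to 715.1 FPKM in the Con. group, 531.2 to 936.8 FPKM in the PTZ group and 1351 to 2041 FPKM in the Q808 group. Unlike *Slc2a1*, erythroid markers were also higher in Q808 than in PTZ. There 2 of 5 tested genes were called higher (1.36% of all genes), with a median log2 difference of 0.93 against 0.04 for *Slc2a1*. Q808-2 was high in erythroid markers and had the lowest *Slc2a1* of the kindled libraries. The part of endothelial, astrocyte and erythroid RNA in the *Slc2a1* differences was not tested.

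**Figure D4:**
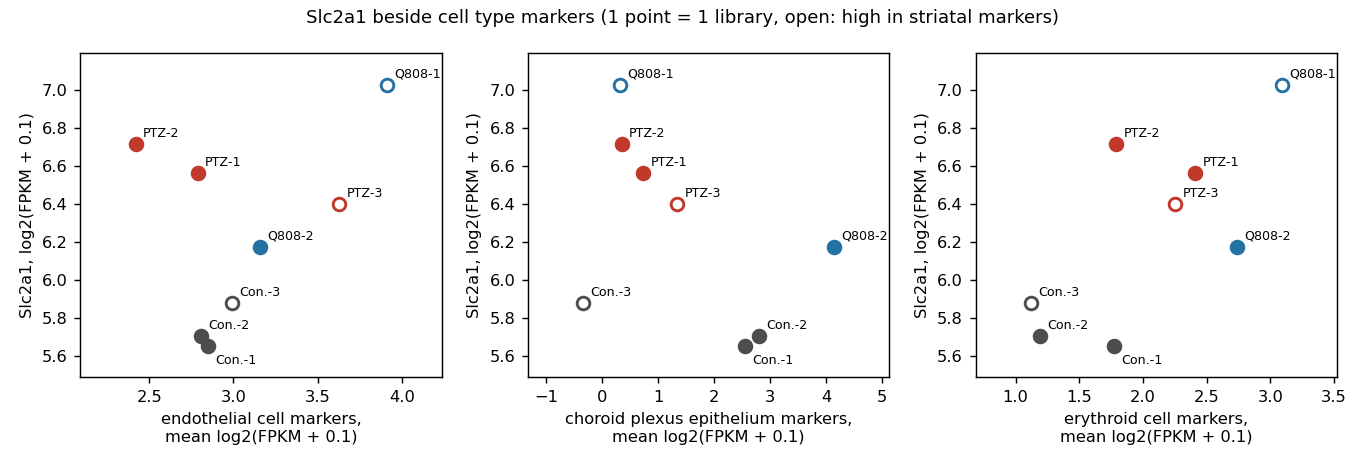
*Slc2a1* against the mean level of endothelial, choroid plexus and erythroid markers, all in log2(FPKM + 0.1), with 1 point per library (open for libraries high in striatal markers). PTZ-1 and PTZ-2 join high *Slc2a1* with the lowest endothelial means, 2.79 and 2.42, the first just below Con.-2 at 2.81. Q808-1 is the highest in both, and the choroid plexus level spans -0.33 to 4.14.

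The other carriers followed *Slc2a1* to different degrees over the 8 libraries. Pearson's r of log2(FPKM + 0.1) with *Slc2a1* was 0.63 for *Slc16a1*, 0.53 for *Slc16a3*, 0.44 for *Slc2a4*, 0.07 for *Slc2a8*, -0.37 for *Slc2a3* and -0.57 for *Slc16a7*. These values are a description over libraries that share their groups, their scaling and the striatal sets.

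Of the 12559 genes compared, the 6 most like *Slc2a1* over the 8 libraries were *Inpp5d* (r = 0.973), *Mfsd2a* (r = 0.973), *Plat* (r = 0.973), *Trim47* (r = 0.970), *Upp1* (r = 0.968) and *Acer2* (r = 0.959). *Inpp5d* codes for the lipid phosphatase SHIP1 of blood and microglial cells, *Plat* for tissue plasminogen activator, *Upp1* for a uridine phosphorylase and *Acer2* for a ceramidase. In each of the 6, all PTZ and Q808 libraries lay above all Con. libraries, which the choice by likeness to *Slc2a1* favours.

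*Mfsd2a* in FPKM was 10.6 ± 0.999 in Con. (SD, n = 3), 16.8 ± 0.442 in PTZ (SD, n = 3) and 16.4 ± 4.10 in Q808 (SD, n = 2). *Plat* was 20.0 ± 2.16, 39.7 ± 10.3 and 39.5 ± 17.5 FPKM in the same groups, and *Acer2* 2.42 ± 0.0437, 6.33 ± 0.945 and 7.08 ± 5.13 FPKM. For each of the 6, Q808-1 was above and Q808-2 below the mean of the PTZ group, as for *Slc2a1*.

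Around the 7 carriers, 64 genes that handle the same fuels were listed in 8 groups, of which 63 were in the files and 56 were tested. In PTZ against Con., 3 of the 56 were called higher and 0 lower (1.69% and 0.84% of all genes), with a median log2 difference of -0.04, the same as over all genes. In Q808 against PTZ, 2 were called higher and 1 lower (1.36% and 0.564% of all genes), with a median of 0.12 against 0.10 over all genes. In Q808 against Con., 5 were called higher and 1 lower (3.07% and 0.391% of all genes), with a median of 0.08 against 0.05. None of these calls passed the adjustment over all genes (limma, adjusted p = 0.999, 0.952 and 0.901 in turn).

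Among the other hexose carriers 6 of 7 were tested, with medians of -0.24 in PTZ against Con., 0.40 in Q808 against PTZ and 0.02 in Q808 against Con. (-0.16 with quantile normalization). All 3 medians had opposite signs in the sets, at -0.21, 0.28 and 0.36 in the set of 5 and 0.25, -0.54 and -0.42 in the set of 3. *Slc2a5*, the fructose carrier GLUT5 of microglia, was called higher in Q808 against Con. Its FPKM were 4.25, 3.55 and 3.63 in the Con. group, 6.20, 5.05 and 4.18 in the PTZ group, and 13.1 and 5.19 in the Q808 group, a log2 difference of 1.10 (SE 0.41) that was 0.41 in the set of 5 libraries and 1.82 in the set of 3. Microglial markers were also higher in Q808-1, at a mean log2 level of 5.18 against 3.96 to 4.60 in the other libraries. *Slc2a13*, a proton-coupled inositol carrier, was called lower in Q808 against Con., at 23.4 ± 7.82 FPKM (SD, n = 2) against 34.9 ± 3.51 FPKM (SD, n = 3). Its log2 difference was -0.19 in the set of 5 libraries and -1.10 in the set of 3.

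The 10 other SLC16 carriers had a median log2 difference of -0.42 in PTZ against Con., with 1 of 10 above 0, of 0.80 in Q808 against PTZ, with 9 of 10 above 0, and of 0.23 in Q808 against Con. (-0.03 with quantile normalization). The first of these medians turned between the sets, at -0.67 in the set of 5 with 0 of 10 above 0, and at 0.36 in the set of 3 with 6 of 10 above 0. In Q808 against PTZ the median was 1.29 in the set of 5 and -0.05 in the set of 3, with 5 of 10 above 0. The set of 5 holds Con.-1, Con.-2 and Q808-2, which had the highest choroid plexus markers, and the part of that tissue in the list's pattern was not tested. Of the 10, only *Slc16a6*, which codes for the ketone body carrier MCT7, was called, higher in Q808 against PTZ (1.36% of all genes). It stood at 2.79 ± 0.378 FPKM (SD, n = 2) against 1.59 ± 0.159 FPKM (SD, n = 3), with log2 differences of 0.72 and 0.76 in the sets of 5 and 3. *Slc16a8*, the MCT3 of choroid plexus and retinal pigment epithelium, stood at 1.15, 0.887 and 2.06 FPKM in Con.-1, Con.-2 and Q808-2, the libraries with the highest choroid plexus markers, and at 0.0590 to 0.262 FPKM in the other 5.

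The chaperones that carry monocarboxylate transporters to the membrane were not called in any comparison. *Bsg* was the highest gene of the fuel lists after *Ldhb*, at 336 ± 90.5 FPKM in the Con. group (SD, n = 3), 354 ± 8.75 FPKM in the PTZ group (SD, n = 3) and 346 ± 72.2 FPKM in the Q808 group (SD, n = 2). *Nptn* was at 284 ± 7.17, 258 ± 5.46 and 213 ± 59.7 FPKM and *Emb*, the embigin partner of MCT2, at 15.8 ± 4.71, 13.1 ± 0.911 and 14.6 ± 9.83 FPKM. All 4 sodium-coupled glucose and monocarboxylate transporters had a mean FPKM below 0.1 and were not tested.

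Of the 8 regulators of glucose uptake, *Insr*, the insulin receptor, was called higher in Q808 against PTZ, at 6.03 and 4.93 FPKM against 3.52, 3.06 and 3.70 FPKM, a log2 difference of 0.66 (SE 0.26) that was 0.57 and 0.69 in the sets of 5 and 3. It was 4.86 ± 1.10 FPKM (SD, n = 3) in the Con. group, which the Q808 libraries overlapped. *Txnip*, whose product promotes the removal of GLUT1 from the cell surface, was 27.2, 16.5 and 32.4 FPKM in the Con. group, 25.7, 20.97 and 54.3 FPKM in the PTZ group, and 52.7 and 35.8 FPKM in the Q808 group, and was not called. *Irs2*, the insulin receptor substrate, was 57.2 and 93.7 FPKM in PTZ-1 and PTZ-2 and 11.5 to 28.0 FPKM in the other 6 libraries, and its groups overlapped.

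Downstream of uptake, *Pdk4*, a pyruvate dehydrogenase kinase, was called higher in both comparisons against Con. Its FPKM were 3.85, 5.69 and 8.55 in the Con. group, 14.9, 11.5 and 9.29 in the PTZ group, and 28.6 and 10.98 in the Q808 group. The log2 difference was 1.01 (SE 0.32) for PTZ against Con. (1.46 in the set of 5 and 0.12 in the set of 3) and 1.61 (SE 0.51) for Q808 against Con. (1.21 and 1.73).

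*Ldha*, the lactate dehydrogenase subunit that favours lactate, was called lower in Q808 against PTZ, at 94.1 and 170.7 FPKM against 194, 232.6 and 190.5 FPKM. Its difference was -0.69 (SE 0.29), or -0.32 in the set of 5 and -1.02 in the set of 3. *Ldhb*, *Hk1* and *Mpc1*, which code for the other main lactate dehydrogenase subunit, the brain hexokinase and a subunit of the mitochondrial pyruvate carrier, were not called, with log2 differences between -0.24 and 0.12 over the 3 comparisons.

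Of the 7 glycogen genes, 2 were called higher in Q808 against Con., as were 3.07% of all genes. *Pygm*, the muscle form of glycogen phosphorylase, which astrocytes also make, was 34.7 ± 6.78 FPKM (SD, n = 2) in the Q808 group and 22.7 ± 4.68 FPKM (SD, n = 3) in the Con. group, and the log2 difference was 0.23 in the set of 5 and 1.18 in the set of 3. *Gys2*, the liver form of glycogen synthase, was called at the limit of measurement, with a mean of 0.101 FPKM over the 8 libraries and log2 differences of 1.05 and 1.33 in the sets. The median of the 7 was 0.20, 0.21 and 0.27 in the 3 comparisons.

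*Slc2a1* belongs to the class of hypoxia-response genes, of which 11 others were in the files. Of these, *Adm* (adrenomedullin, a vasodilator peptide) and *Hmox1* (heme oxygenase) were called higher in PTZ against Con., as were 1.69% of all genes. The median of the list was 0.22, or 0.15 and 0.07 in the sets of 5 and 3. *Adm* was 0.579, 0.345 and 0.365 FPKM in the Con. group, 1.29, 1.52 and 0.960 FPKM in the PTZ group, and 0.473 and 0.837 FPKM in the Q808 group. Its difference was 1.36 (SE 0.33), at 1.45 and 1.19 within the sets, and Q808-1 lay within the Con. range. Other genes of the list went both ways in Q808-1. *Vegfa*, *Ndrg1*, *Ddit4* and *Hmox1* had their highest level of all libraries there, while *Bnip3* and *Higd1a* lay within the Con. range. *Hmox1* differed by 0.73 (SE 0.27) with overlapping groups, at 0.74 and 0.70 within the sets.

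In Q808 against Con. the median of the hypoxia list was 0.18. *Ddit4*, an mTOR inhibitor, was called higher, as were 3.07% of all genes, at 107.6 and 67.3 FPKM against 52.8, 61.9 and 47.5 FPKM. Its difference was 0.24 in the set of 5 and 1.18 in the set of 3, and the list median was 0.02 and 0.30. *Vegfa* and *Ndrg1* were not called, at log2 differences of 0.40 and 0.22 in PTZ against Con. and 0.49 and 0.51 in Q808 against Con. With the replicate number as a block, 6 in place of 3 of the fuel-handling genes were called in PTZ against Con. The number called among all genes tested also rose with the block, from 395 to 616.

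**Figure D5:**
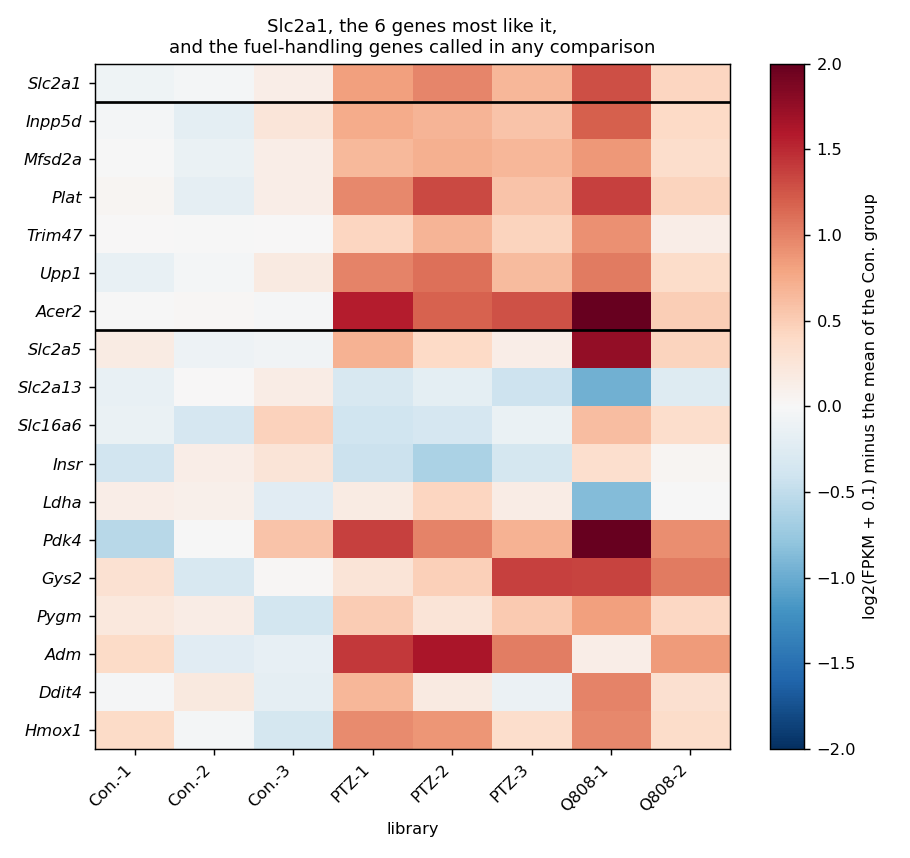
log2(FPKM + 0.1) minus the mean of the Con. group in each library (columns) for *Slc2a1*, the 6 genes most like it and the fuel-handling genes called in any comparison (rows), with colours capped at 2 either way. *Slc2a1* is 0.66 to 0.97 in the PTZ libraries and 1.29 and 0.43 in the Q808 libraries. *Adm* is 1.03 to 1.64 in the PTZ libraries and 0.14 and 0.85 in the Q808 libraries.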

How the data were processed

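FPKM of 22601 genes in 8 hippocampal libraries (3 Con., 3 PTZ and 2 Q808) were deposited, which the authors had computed with Cufflinks after trimming with Trimmomatic. The submitters' processing notes also name HISAT2, Bowtie2, SAMtools, StringTie, HTSeq and DESeq; versions, genome build and strand setting are not given in the sources used here. The authors' read counts and tests were not used here. Groups came from the labels.

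Genes were matched by GeneID, with symbols for 20633 of them from the RefSeq table of GRCr8 and none for 1968. Spearman correlations between libraries were 0.966 to 0.986. Genes whose FPKM averaged 0.1 or more (15593) were tested on log2(FPKM + 0.1), which understates changes of low genes, with limma 3.58.1 in R 4.3.3 (empirical Bayes with a trend, each comparison on its own 2 groups). Called genes changed over 1.5-fold at an unadjusted p-value below 0.05, and adjusted p-values are Benjamini-Hochberg over all genes tested. Each library is 1 rat's tissue by the study's methods.

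FPKM of a gene in different libraries were whole multiples of the value of 1 fragment. Whole fragments were recovered, as the smallest whole numbers that fit within 0.05, for 17725 of the 17729 genes with a value above 0 in 2 or more libraries (multipliers up to 30000), and gave exact Poisson 95% counting intervals. Libraries held 11682970 to 16660241 of them.

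The carriers, gene lists and tests were chosen with earlier results of these data known. Named were the 7 carriers, listed fuel-handling genes that were called, up to 4 genes per list of highest mean FPKM, the 6 genes most like *Slc2a1* by Pearson's r over 12559 genes, and markers beside results. *Slc16a8* was named, and the sum of *Slc2a3* and its copy formed, after their values were seen. Of the listed fuel-handling genes *Ca9* was not analysed here. Same-numbered PTZ and Con. libraries deviated together from their group means (correlations of 0.309, 0.392 and 0.472). A block on these numbers, which come from the labels alone, was therefore fitted as an alternative, and the main fits were not paired. PTZ-1 correlated more with Con.-2 (0.452), and the third pair shares high striatal markers, so the correlations do not establish pairs.

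Alternatives were other pseudocounts, filters, scalings and fits, the replicate block, each library left out, and the 3 libraries high in striatal markers left out together. The fits were also run on simulated data with equal, independent noise for all genes. Those data had neither the striatal sets nor the scatter of low fragment numbers, so they do not show how the fits handle either. Sequences and motif positions came from RefSeq promoters. Python 3.11.15 with pandas 2.3.3, numpy 2.4.6, scipy 1.17.1 and matplotlib 3.10.9 was used for the rest.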

Additional observations from a re-analysis of the deposited data

How the results depend on the processing

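In PTZ against Con. the *Slc2a1* log2 difference was 0.74 to 0.90 with single libraries left out and 0.96 without the 3 libraries high in striatal markers, which were left out in a fit of all 3 groups. The 395 genes called became 219 with a pseudocount of 1, 616 with the replicate block, 1532 without those 3 libraries and 249 to 1135 with single libraries left out (1135 without PTZ-3), and the 3 fuel-handling genes became 6 with the block, 13 without the 3 libraries and 1 to 7. The number of carriers called stayed at 1 in all of these. Nothing is read from this count, since *Slc2a1* was chosen for its difference in this comparison. In Q808 against PTZ, whose PTZ libraries also served to choose the gene, the *Slc2a1* difference turned to -0.05 with median ratio scaling and -0.037 with the block. It was -0.47 without the 3 libraries, where Q808-2 is the only Q808 library and is assumed to vary like the other groups. With single libraries left out it ranged from -0.39 (without Q808-1) to 0.47 (without Q808-2). Directions also turned for *Slc16a1* at -0.23 and *Slc16a7* at 0.088 without the 3 libraries, and single libraries left out gave -1.51 to 0.006 for *Slc2a3*, -0.29 to 0.68 for *Slc16a1*, -0.41 to 0.12 for *Slc16a3* and -0.49 to 0.23 for *Slc16a7*. Carriers called were 0 to 1, with *Slc16a1* called without Q808-2. The 3 fuel-handling genes became 0 with a pseudocount of 1 or quantile normalization, 13 with the block, 14 without the 3 libraries and 0 to 10 with single libraries left out, and the 300 genes became 193 at a mean FPKM of at least 1, 1894 with the block, 1625 without the 3 libraries and 132 to 1569.

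In Q808 against Con. *Slc2a1* was 0.50 without the 3 libraries (below 1.5-fold, with the same lone Q808 library) and 0.43 to 1.29 with single libraries left out. *Slc2a4* was not called with a pseudocount of 1 (0.44), quantile normalization (0.63), or the block (0.92, limma, unadjusted p = 0.0748), and was 0.72 to 1.08 with single libraries left out. Carriers called fell from 2 to 1 with a pseudocount of 1, a mean FPKM of at least 1, quantile normalization, the block or the 3 libraries left out, and were 0 to 3 with single libraries left out. Directions turned for *Slc2a3* (0.055) and *Slc16a1* (-0.076) without the 3 libraries and *Slc16a3* with quantile normalization (-0.17), and single libraries left out gave -1.48 to 0.037 for *Slc2a3*, -0.21 to 0.76 for *Slc16a1*, -0.19 to 0.33 for *Slc16a3* and -0.63 to 0.089 for *Slc16a7*. The 6 fuel-handling genes became 2 with no filter, 3 with no trend and 0 to 10 with single libraries left out, and the 540 genes became 340 with a pseudocount of 1, 1076 with the block and 279 to 1799. Quantile normalization moved the share of called genes that were higher from 70.7% to 47.8% in Q808 against PTZ and from 88.7% to 64.6% in Q808 against Con. Same-numbered libraries correlated at -0.439 and 0.416 for Q808 and PTZ and at -0.463 and 0.661 for Q808 and Con. The numbers thus do not pair these groups, and the block is only an alternative here too. Limma's voom on the recovered fragments, chosen after seeing the data, called 393, 369 and 585 genes and 1, 0 and 2 carriers in the 3 comparisons and gave 0.89 for *Slc2a1* and 1.04 for *Slc2a4* in Q808 against Con. *Slc2a3*, *Slc2a4* and *Slc16a3* have no value at a mean FPKM of at least 1. The causes of these shifts were not tested. With 2 Q808 rats, and under 50 fragments per library for *Slc2a3*, *Slc2a4* and *Slc16a3*, both rats and fragment numbers limit what can be said of these carriers. For *Slc2a3* fragments may also have been split with its copy or left out in counting, which was not tested, so its low values do not give its level.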
